A study of Mus musculus with 6 samples.

Results

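Heat shock proteins and co-chaperones of the cytosol and the mitochondrion were followed in peritoneal macrophages through a response to lipopolysaccharide (LPS, a bacterial cell wall component). The set holds 10 genes chosen by name, Hspa1a, Hspa1b, Hspa8, Hsph1, Dnajb1, Dnaja1, Hsp90aa1, Hsp90ab1, Bag3 and Hspd1, of the 18194 genes that had a probe set naming a single gene. For each gene the probe set with the highest mean over the 6 arrays was used. Of the 10 genes, 9 had such a probe set and all 9 passed the floor on low values, which 13587 genes passed; Hsp90ab1 was not analysed here. Akirin2 KO macrophages came from LysM-Cre+;Akirin2fl/fl mice, in which Cre recombinase made from the lysozyme locus removes floxed Akirin2 in myeloid cells, and were unstimulated (0 h) or given LPS at 100 ng/ml for 2 or 4 h. Wild-type macrophages had the same 3 conditions. Both genotypes had a mixed C57BL/6 x 129Sv background, and all cells were drawn to the peritoneum by thioglycollate. The labels give no age, do not say whether the wild-type mice carried Cre or floxed alleles, and do not give the number of mice per sample. Each of the 6 conditions had 1 array, so a difference between single arrays has no error and is given by its size.

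Heat shock proteins are chaperones that bind unfolded proteins and help them fold. HSP70 proteins hold and release clients in an ATP-driven cycle, in which J-domain proteins (HSP40) start ATP hydrolysis and exchange factors such as HSP110 and BAG proteins release the nucleotide, and HSP90 receives many clients from HSP70. HSP60 forms a folding chamber inside mitochondria. Several of these genes are induced by the transcription factor HSF1, which binds inverted repeats of the letters GAA called heat shock elements, while others are made at a high level in unstressed cells.

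All values are the authors' log2 expression values per probe set, and a difference of 1 on that scale is 2-fold. The array medians lay between 3.18 and 3.23, so a value near 3.2 was that of a typical probe set. Akirin2 read 5.18, 5.54 and 4.91 in Akirin2 KO macrophages at 0, 2 and 4 h, against 7.43, 7.47 and 7.33 in wild-type macrophages. Of 14 macrophage markers, 13 were at or above the array median on every array, and their summed level (log2 of the sum) was 14.3 to 14.4 in Akirin2 KO and 14.3 to 14.5 in wild-type macrophages. Between genotypes, in the limma fit described below, 3 of the 14 were called lower, where 1.06% of all genes were. They were C1qa (-1.08), C1qc (-0.71) and Fcgr1 (-0.89). Mesothelial and fibroblast markers summed to 8.93 to 9.23 in Akirin2 KO, against 9.64 to 9.84 in wild-type macrophages. Of 9 tested in the same fit 1 was called lower, Col1a2 (-0.83). Of 3 T and NK cell markers tested 1 was called higher, Cd28 (1.19), where 0.891% of all genes were. The gap between the 3′ and 5′ probe sets of Actb, which tracks RNA quality, was 4.64, 4.50 and 4.36 in Akirin2 KO, against 4.22, 4.16 and 4.09 in wild-type macrophages at 0, 2 and 4 h. The same gap of Gapdh was 4.34, 4.52 and 4.44 in Akirin2 KO, against 4.33, 4.33 and 4.42 in wild-type macrophages. Hybridisation spikes (bioB and bioC) averaged 10.7 on the Akirin2 KO 0 h array and 9.87 to 10.2 on the other 5 arrays. In bulk samples fewer cells of a type and less RNA per cell cannot be told apart.

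The upstream sequences of 4 genes are shown because these genes changed with LPS or with genotype below. They are RefSeq windows of build GRCm38.p6 that run from 250 bases before to 50 bases after an annotated transcription start, on the strand of the gene. Capitals mark letters matching GAANNTTC, a pair of inverted heat shock element units, or a run of units, which is GAANNTTC followed directly by NNGAA or preceded directly by TTCNN and so contains the pair. Both strands are covered, since GAANNTTC is its own reverse complement and the runs are the reverse complements of each other.
Hspa1b (chr17:34959189-34959488, minus strand): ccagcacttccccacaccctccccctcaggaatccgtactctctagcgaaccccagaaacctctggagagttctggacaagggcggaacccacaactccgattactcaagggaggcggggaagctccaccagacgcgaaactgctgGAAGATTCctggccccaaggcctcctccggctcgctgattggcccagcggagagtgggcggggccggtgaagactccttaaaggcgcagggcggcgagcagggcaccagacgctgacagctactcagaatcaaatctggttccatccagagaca
Hspa1a (chr17:34972107-34972406, minus strand): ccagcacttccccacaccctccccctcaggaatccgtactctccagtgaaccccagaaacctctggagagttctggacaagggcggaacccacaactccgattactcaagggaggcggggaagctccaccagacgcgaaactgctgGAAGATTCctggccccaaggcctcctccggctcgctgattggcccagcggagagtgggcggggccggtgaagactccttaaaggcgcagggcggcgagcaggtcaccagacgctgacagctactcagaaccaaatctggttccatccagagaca
Hsph1 (chr5:149636266-149636565, minus strand): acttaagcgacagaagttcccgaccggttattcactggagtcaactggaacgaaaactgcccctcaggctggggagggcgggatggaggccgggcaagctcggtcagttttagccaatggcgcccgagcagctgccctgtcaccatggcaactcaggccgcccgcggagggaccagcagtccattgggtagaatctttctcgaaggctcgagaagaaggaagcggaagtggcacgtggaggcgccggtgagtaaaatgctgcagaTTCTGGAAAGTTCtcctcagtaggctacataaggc
Hspd1 (chr1:55087883-55088182, minus strand): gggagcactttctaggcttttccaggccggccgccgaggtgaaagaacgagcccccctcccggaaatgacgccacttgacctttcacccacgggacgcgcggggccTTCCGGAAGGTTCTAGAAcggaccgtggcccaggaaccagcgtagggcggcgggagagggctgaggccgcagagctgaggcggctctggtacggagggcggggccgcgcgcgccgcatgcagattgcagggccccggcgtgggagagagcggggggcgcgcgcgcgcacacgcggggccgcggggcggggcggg
The windows of Hspa1a and Hspa1b were equal at 296 of 300 positions, and each held the pair once, with its first base at -104 from the start. The Hsph1 window shown held a run of units at 16 to 28 bases after the start. In the other Hsph1 window, of a different start, the run lay at 37 to 49 bases after it. The Hspd1 window shown held overlapping runs from -144 to -127, and the other Hspd1 window held neither the pair nor a run. Of the 7 members with a window in the table, 6 held the pair in at least 1 of their windows and 2, Hsph1 and Hspd1, held a run. The pair was in 7.86% and a run in 0.603% of all 32851 windows, or in 9.04% and 0.662% of genes. Dnaja1 held the pair at -124 in 1 of its 3 windows and Bag3 at 43 bases after the start. In both Dnajb1 windows these letters were not found. A match of letters is a description and does not show binding.

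Hspa1b, one of a pair of stress-inducible HSP70 genes, had the widest range of the 9 genes. It read 5.06, 8.38 and 8.07 in Akirin2 KO macrophages at 0, 2 and 4 h, against 6.23, 9.39 and 8.56 in wild-type macrophages. Both genotypes were lowest at 0 h and highest at 2 h, and the Akirin2 KO array was the lower one at each time. Relative to 0 h, the level was 9.996-fold higher at 2 h and 8.09-fold higher at 4 h in Akirin2 KO, and 8.95-fold and 5.06-fold higher in wild-type macrophages. In a limma fit with LPS time and genotype as terms, run over all 13587 genes with Benjamini-Hochberg adjustment, Hspa1b rose by 3.24 at 2 h (SE 0.19, adjusted p = 3.22e-05) and by 2.68 at 4 h (SE 0.19, adjusted p = 5.75e-05). With 1 array per condition, the LPS p-values treat the genotypes as the replicates of a time and carry no spread between animals. Hspa1b was the 31st of 538 genes called higher at 2 h in order of size, and the 76th of 1055 at 4 h.

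Between genotypes Hspa1b fell by 0.89 over the 3 times (SE 0.15, adjusted p = 0.031), so that Akirin2 KO macrophages had 53.9% of the wild-type level. With 1 array per condition, the genotype p-values of this fit rest on how little the difference varied among 0, 2 and 4 h and carry no spread between animals. By time, Hspa1b in Akirin2 KO macrophages stood at 44.4%, 49.6% and 71.1% of its wild-type value at 0, 2 and 4 h. The call was lost without either 2 h array (-0.83, adjusted p = 0.0767). It was also lost with the 3 probe sets of the gene averaged (-0.34, adjusted p = 0.2). The other Hspa1b probe sets were dim. Probe set 1427127_x_at read 3.23, 3.73 and 3.60 in Akirin2 KO, against 2.64, 3.76 and 3.94 in wild-type macrophages, and its genotype difference was 0.077 (adjusted p = 0.889). Probe set 1427126_at read 2.83, 3.62 and 3.16 in Akirin2 KO, against 2.72, 4.13 and 3.36 in wild-type macrophages, and differed by -0.20 (adjusted p = 0.601). The genotype difference of Hspa1b therefore rests on its 1 bright probe set.

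Hspa1a, the near-identical neighbour of Hspa1b, was read by 1 dim probe set. Its values were 2.82, 3.71 and 3.21 in Akirin2 KO macrophages at 0, 2 and 4 h, against 2.91, 4.57 and 3.49 in wild-type macrophages. It was at or above the array median on 4 of the 6 arrays, all of them after LPS, so it passed the floor through the LPS arrays. Hspa1a rose by 1.28 at 2 h (SE 0.20, adjusted p = 0.00693), a call lost without the wild-type 2 h array (0.94, adjusted p = 0.0684). At 4 h it stood at 0.49 above 0 h (adjusted p = 0.153), and at 0.72 without the Akirin2 KO 0 h array, where it passed (adjusted p = 0.0365). From 2 h to 4 h the wild-type level dropped by 1.08, and the Akirin2 KO level differed by -0.50. The genotype difference was -0.41 (adjusted p = 0.276). Hspa1a and Hspa1b are near-identical copies, so which of them a probe set reads is uncertain.

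Hspa8, the constitutive HSP70 of the cytosol, was the brightest of the 9 genes on its chosen probe set. It read 11.63, 11.90 and 11.97 in Akirin2 KO macrophages, against 11.58, 11.89 and 11.94 in wild-type macrophages at 0, 2 and 4 h. The arrays of a time lay within 0.05 of each other, and both genotypes were lowest at 0 h. The LPS difference on this probe set was 0.29 at 2 h (adjusted p = 0.312) and 0.35 at 4 h (adjusted p = 0.158), and the genotype difference was 0.030 (adjusted p = 0.933). The other 3 probe sets of Hspa8 gave a larger LPS difference. On 1420622_a_at the values were 9.65, 10.42 and 10.86 in Akirin2 KO, against 9.78, 10.47 and 10.64 in wild-type macrophages. With each probe set fitted on its own among 24253 probe sets, an alternative chosen after the data were seen, that probe set rose by 0.73 at 2 h (adjusted p = 0.031) and by 1.03 at 4 h (SE 0.16, adjusted p = 0.00266). At 4 h 1420623_x_at rose by 1.11 (adjusted p = 0.00164) and the dim 1431182_at by 0.97 (adjusted p = 0.00465). The chosen probe set was called with a trended, robust variance prior (0.29, adjusted p = 0.00182 at 2 h and 0.35, adjusted p = 0.000133 at 4 h). Whether an LPS change of Hspa8 was called therefore depended on the probe set and on the prior, and all 4 probe sets stood above 0 h at both times in both genotypes.

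**Figure D1:**
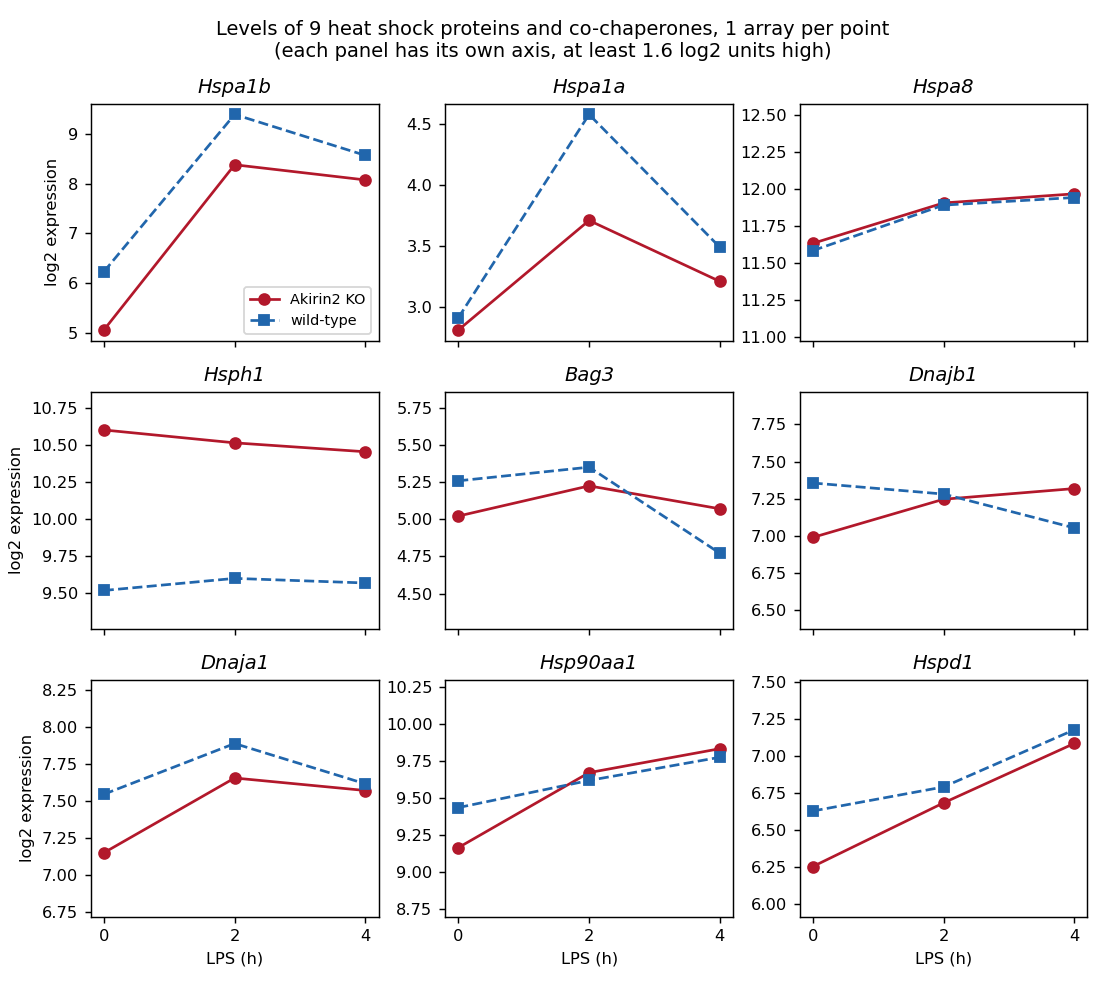
Log2 expression (vertical axis) of the 9 genes against hours of LPS (horizontal axis), in Akirin2 KO (red circles, solid line) and wild-type macrophages (blue squares, dashed line), with 1 array per point and no replicates. Hspa1b spans 5.06 to 9.39, and Hsph1 is the gene whose Akirin2 KO arrays (10.45 to 10.60) all lie above its wild-type arrays (9.52 to 9.60).

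Hsph1 encodes HSP110, a large HSP70 relative that serves as a nucleotide exchange factor for HSP70. It was higher in Akirin2 KO macrophages at every time. Its values were 10.60, 10.51 and 10.45 in Akirin2 KO, against 9.52, 9.60 and 9.57 in wild-type macrophages at 0, 2 and 4 h. The genotypes did not overlap, and within a genotype the 3 arrays lay within 0.15 of each other. The Akirin2 KO level was 2.12, 1.88 and 1.85 times the wild-type level at the 3 times, a mean log2 difference of 0.96 ± 0.11 (SD, n = 3 times). In the limma fit Hsph1 rose by 0.96 (SE 0.12, adjusted p = 0.00783), the 51st of 121 genes called higher. It stayed called with each array left out in turn (0.90 to 0.9985) and with its probe sets averaged (0.61, adjusted p = 0.0369). Leaving out either array of a time gives the same genotype estimate, which then rests on the other times alone. Its other probe set, 1423566_a_at, was dim, with 4.07, 4.04 and 3.99 in Akirin2 KO, against 3.67, 3.77 and 3.89 in wild-type macrophages. That probe set was also higher in Akirin2 KO at each time but did not pass (0.26, adjusted p = 0.429). LPS left no called difference in Hsph1, with -0.0026 at 2 h (adjusted p = 0.995) and -0.048 at 4 h (adjusted p = 0.87).

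Bag3, a co-chaperone that binds HSP70 and links it to selective autophagy, had a single probe set. It read 5.02, 5.23 and 5.07 in Akirin2 KO macrophages, against 5.26, 5.35 and 4.77 in wild-type macrophages at 0, 2 and 4 h. The genotypes overlapped and the wild-type 4 h array was the lowest. No fit called Bag3, whose differences were -0.021 between genotypes (adjusted p = 0.961), 0.15 at 2 h (adjusted p = 0.707) and -0.22 at 4 h (adjusted p = 0.468).

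Dnajb1 and Dnaja1 encode HSP40 proteins, which deliver clients to HSP70 and start its ATP hydrolysis. Dnajb1 read 6.99, 7.25 and 7.32 in Akirin2 KO, against 7.36, 7.28 and 7.05 in wild-type macrophages at 0, 2 and 4 h. The order of the times was thus opposite in the genotypes on this probe set, and the ranges overlapped. With arrays centred, all 9 genes were above 0 h at 2 h in wild-type macrophages, so the wild-type order did not hold there. Its differences were -0.046 between genotypes (adjusted p = 0.914), 0.092 at 2 h (adjusted p = 0.836) and 0.013 at 4 h (adjusted p = 0.974). The dimmer Dnajb1 probe set, 1416756_at, read 3.03, 3.39 and 3.64 in Akirin2 KO, against 3.45, 3.67 and 3.51 in wild-type macrophages, and was above 0 h after LPS in both genotypes.

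Dnaja1 read 7.15, 7.65 and 7.57 in Akirin2 KO, against 7.54, 7.89 and 7.61 in wild-type macrophages at 0, 2 and 4 h. Both genotypes were highest at 2 h, and the Akirin2 KO array was the lower one at each time. On this probe set the differences were 0.42 at 2 h (adjusted p = 0.17), 0.25 at 4 h (adjusted p = 0.359) and -0.22 between genotypes (adjusted p = 0.458). With the trended, robust prior the 2 h difference passed (adjusted p = 0.0352). The suffix of this probe set, _s_at, marks probes shared with other transcripts. The next brightest probe set, 1416288_at, read 6.65, 7.22 and 7.2 in Akirin2 KO, against 6.73, 7.46 and 7.36 in wild-type macrophages. Fitted on its own it rose by 0.65 at 2 h (adjusted p = 0.0396) and by 0.59 at 4 h (adjusted p = 0.0326), and the third, 1460179_at, stood at 0.58 (adjusted p = 0.0625) and 0.41 (adjusted p = 0.125).

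Hsp90aa1 encodes the stress-inducible form of cytosolic HSP90. It read 9.16, 9.67 and 9.83 in Akirin2 KO, against 9.43, 9.62 and 9.77 in wild-type macrophages at 0, 2 and 4 h. Both genotypes were lowest at 0 h and highest at 4 h, and the genotypes overlapped. The LPS difference was 0.34 at 2 h (adjusted p = 0.273) and 0.50 at 4 h (SE 0.16, adjusted p = 0.0687), and the genotype difference was -0.053 (adjusted p = 0.884). The 4 h difference passed with arrays centred (0.54, adjusted p = 0.0473), with the higher floor (0.50, adjusted p = 0.0459) and without the wild-type 0 h array (0.67, adjusted p = 0.0304). Without the Akirin2 KO 0 h array it was 0.34 (adjusted p = 0.25), and the 2 h difference was 0.18 (adjusted p = 0.612). With the trended, robust prior both times passed (adjusted p = 0.0213 at 2 h and 0.000421 at 4 h). Probe set 1426645_at read 5.86, 6.46 and 6.56 in Akirin2 KO, against 6.11, 6.49 and 6.91 in wild-type macrophages, and on its own it rose by 0.75 at 4 h (adjusted p = 0.0139). Of the other 3 probe sets, 1433251_at was below the array median on all 6 arrays.

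Hspd1 encodes HSP60, the chaperonin of the mitochondrial matrix, and had 1 probe set. It read 6.25, 6.68 and 7.08 in Akirin2 KO macrophages, against 6.63, 6.79 and 7.18 in wild-type macrophages at 0, 2 and 4 h. The level was higher at each later time in both genotypes. Hspd1 rose by 0.69 at 4 h (SE 0.15, adjusted p = 0.0184), a 1.61-fold change, and stood 0.30 above 0 h at 2 h (adjusted p = 0.338). The 4 h call was lost without the Akirin2 KO 0 h array (0.55, adjusted p = 0.0619) and without the Akirin2 KO 4 h array (0.62, adjusted p = 0.0928). Its genotype difference was -0.19 (adjusted p = 0.527). Hspe1, which encodes the co-chaperonin HSP10 that caps the HSP60 chamber, read 8.12, 7.996 and 8.35 in Akirin2 KO, against 8.22, 8.08 and 8.28 in wild-type macrophages, and passed in none of the fits.

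In the fit over both genotypes 2 rose at 2 h, Hspa1b and Hspa1a, and 0 fell, where 6.85% of all genes were called (3.96% higher and 2.89% lower). Of these, Hspa1a had passed the floor through its LPS arrays alone and may share signal with Hspa1b, so its rise is not read against that share. At 4 h 2 rose, Hspa1b and Hspd1, and 0 fell, where 15.4% of all genes were called (7.76% higher and 7.61% lower). The median of the 9 was 0.30 at 2 h and 0.35 at 4 h, beside -0.042 and -0.026 over all genes. Without the Akirin2 KO 0 h array the 2 h median of the 9 was 0.18. In the same fit Hsph1 at both times and Bag3 at 4 h lay below 0 without a call. By the 2-fold rule in Akirin2 KO macrophages 1 gene, Hspa1b, was higher at 2 h and at 4 h, where 2.44% and 4.07% of all genes were. In wild-type macrophages Hspa1b was 2-fold higher at 2 h and at 4 h, where 2.26% and 3.72% of all genes were. Hspa1a was also 2-fold higher there at 2 h. Since Hspa1a passed the floor through its LPS arrays, it is not read against that share. Between 2 and 4 h, 0 of the 9 moved 2-fold in Akirin2 KO (1.52% of all genes). In wild-type macrophages Hspa1a was 2-fold lower at 4 h than at 2 h, where 1.07% of all genes were lower. This drop is not read against that share either.

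**Figure D2:**
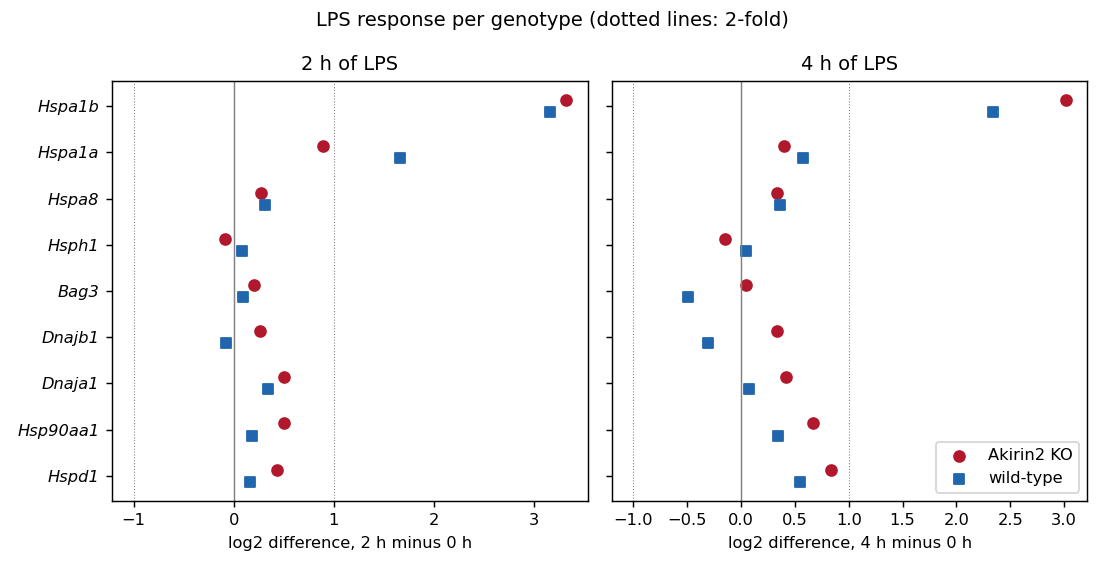
Log2 difference from 0 h (horizontal axis) of the 9 genes (rows) at 2 h (left) and 4 h of LPS (right), in Akirin2 KO (red circles) and wild-type macrophages (blue squares), each point the difference of 2 single arrays. Hspa1b stands apart, at 3.32 and 3.16 at 2 h and at 3.02 and 2.34 at 4 h in Akirin2 KO and wild-type macrophages, and Hspa1a passes the dotted 2-fold line in wild-type macrophages at 2 h.

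Between genotypes, over the 3 times, Hsph1 rose and Hspa1b fell among the 9 genes, 1 each way, where 1.95% of all genes were called (0.891% higher and 1.06% lower). The median of the 9 was -0.053, beside -0.011 over all genes, and it was 0.020 without either 0 h array and -0.20 without either 4 h array. Hspa1b was 2-fold lower in Akirin2 KO at 0 h and 2 h (1.15% and 0.464% of all genes lower) and Hsph1 2-fold higher at 0 h (0.78% higher), and at 4 h 0 of the 9 were 2-fold apart (1.45%). At 0 h 7 of the 9 were lower in Akirin2 KO, as were 60.0% of all genes, at 2 h 6 (49.1%) and at 4 h 4 (45.5%). With arrays centred these counts were 6 at each time. Centring also moved the median over all genes, from -0.074 to 0.087 at 0 h and from 0.030 to -0.076 at 4 h. The shares given are those before centring. The summed level of mesothelial and fibroblast markers and the Actb 3′ to 5′ difference, given above, also differed between genotypes at all 3 times. Of the single markers tested, Col1a1, Col1a2, Col3a1, Dcn, Pdgfra and Msln were lower in Akirin2 KO at each time. Upk3b, Krt19 and Wt1 were higher there at 2 h (0.30, 0.37 and 0.034). The Gapdh gap was nearly equal at 0 h and 4 h. The part of these measures in the differences of Hspa1b and Hsph1 was not tested.

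**Figure D3:**
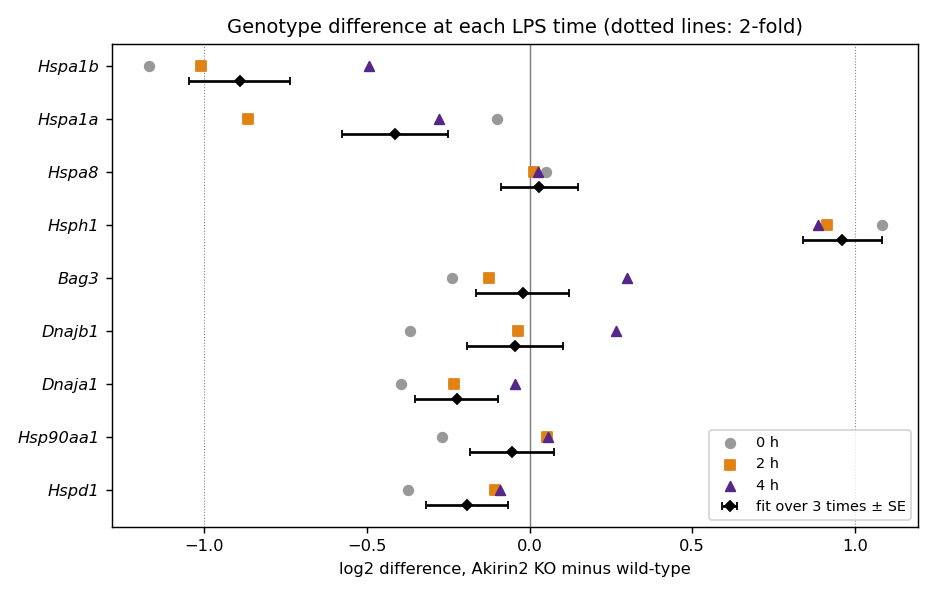
Log2 difference of Akirin2 KO minus wild-type macrophages (horizontal axis) for the 9 genes (rows) at 0 h (grey circles), 2 h (orange squares) and 4 h of LPS (purple triangles), with the limma estimate over the 3 times below them (black diamonds, bars ± SE). Hsph1 lies at 0.89 to 1.08 and Hspa1b at -1.17 to -0.49, while the limma estimates of the other 7 genes lie between -0.41 and 0.030.

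The size of the LPS response was then compared between genotypes. In a fit that added the interaction of genotype with stimulation, 0 of the 9 genes passed, where 0.0294% of all genes were called and 1739 genes had an unadjusted p under 0.05. The interaction was 0.42 for Hspa1b (SE 0.28, adjusted p = 0.568), -0.47 for Hspa1a (SE 0.29, adjusted p = 0.521) and 0.48 for Dnajb1 (SE 0.26, adjusted p = 0.463), and lay between -0.18 and 0.33 for the other 6. This fit has 1 residual degree of freedom, and a p that misses the threshold does not show that the responses were alike. By single arrays 0 of the 9 had a response 2-fold apart at 2 h (1.74% of all genes) or 4 h (3.14%). The response of Hspa1b was 0.16 larger in Akirin2 KO at 2 h and 0.68 larger at 4 h, beside a lower Akirin2 KO level at all 3 times. On its 2 dim probe sets the interaction was -0.46 and -0.77 (adjusted p = 0.52 and 0.278), the opposite sign. The response was larger in Akirin2 KO for 6 of the 9 genes at 2 h and 6 at 4 h, as for 61.7% and 61.8% of all genes. With arrays centred it was larger for 4 and 6. Centring turned the median response difference over all genes from 0.091 to -0.070 at 2 h and from 0.12 to -0.15 at 4 h. The Akirin2 KO 0 h array, which enters every one of these differences, also had the higher hybridisation spikes, whose part was not tested.

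Probe sets of a gene were compared next, since 6 of the 9 genes had more than 1 and the set of 9 genes had 22 in all. For Hspa8, Dnaja1 and Hsp90aa1 each probe set with a mean above 5 was higher at 2 h and 4 h than at 0 h in both genotypes. The dim Hsp90aa1 probe sets were above 0 h in Akirin2 KO only. In wild-type macrophages 1441827_x_at stood at -0.059 and -0.12 and 1433251_at at -0.057 and -0.096. The brighter Dnajb1 probe set was also below 0 h in wild-type macrophages (-0.075 and -0.30), where its dimmer one was above. Sizes differed, from 0.35 to 1.11 at 4 h for Hspa8, where the brightest gave the smallest value. For Hspa1b the brightest gave the largest value, 2.68, against 0.48 and 0.84 for the dim ones. Leaving out probe sets with the suffix _x_at or _s_at, which may bind other transcripts, brought the genes that rose to 4 at each time. Hspa8 and Dnaja1 were added to those named above. In that setting 519 of 13160 genes were called higher at 2 h and 1013 at 4 h. The 2 h count holds Hspa1a, which is not read against that share.

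**Figure D4:**
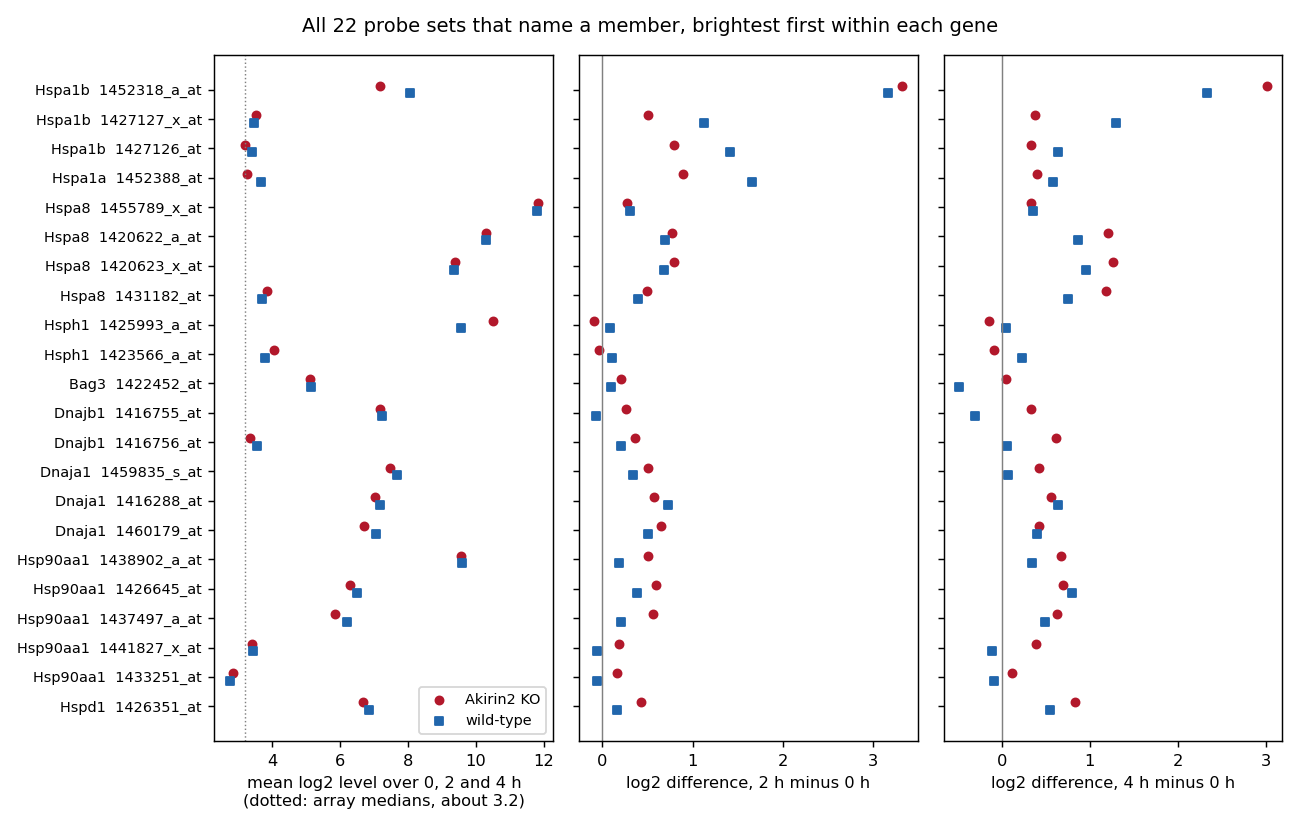
The 22 probe sets naming one of the 9 genes (rows), with the mean log2 level per genotype over 0, 2 and 4 h (left, dotted line at the array medians) and the log2 difference from 0 h at 2 h (middle) and 4 h of LPS (right), in Akirin2 KO (red circles) and wild-type macrophages (blue squares). The LPS difference of Hspa1b is 2.34 to 3.32 on its bright probe set and at most 1.41 on the others, and the brightest Hspa8 probe set has the smallest LPS difference of its 4.

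Other chaperone genes were taken from 8 lists with 95 genes, of which 83 were tested. Between genotypes 0 rose and 0 fell in the limma fit, where 1.95% of all genes were called, while 14 had an unadjusted p under 0.05, as did 15.4% of all genes. The median difference was -0.065, beside -0.011 over all genes. Hspb1, a small heat shock protein, read 5.04, 5.06 and 5.05 in Akirin2 KO, against 6.08, 5.81 and 5.15 in wild-type macrophages at 0, 2 and 4 h (-0.63, adjusted p = 0.139). At 2 h of LPS 2 of the 83 rose, the HSP70 relative Hspa13 (0.83) and the HSP40 gene Dnaja2 (0.69), and 1 fell, the HSP40 gene Dnajb14 (-0.89), where 3.96% of all genes were called higher and 2.89% lower. At 4 h 9 rose and 2 fell, or 11 of 83 where 15.4% of all genes were called. Among HSP70 relatives Hspa13 was the 1 of 6 that rose at 4 h (0.93, SE 0.16, adjusted p = 0.00459). Of 15 HSP40 genes Dnaja2 (0.67), Dnajc2 (0.64) and Dnajc21 (0.59) rose and Dnajb14 fell by 0.88. Of 16 co-chaperones Stip1, the adaptor that joins HSP70 to HSP90, rose by 1.03 (adjusted p = 0.0134). It read 3.36, 3.62 and 4.35 in Akirin2 KO, against 3.31, 4.41 and 4.39 in wild-type macrophages at 0, 2 and 4 h. Of 14 subunits of the cytosolic chaperonin TRiC and of prefoldin, Cct3 (0.79) and Cct6a (0.63) rose. Of 4 small heat shock proteins Cryab rose by 0.68, and of 16 chaperones of the endoplasmic reticulum Hspa5 (BiP) rose by 0.53 and Dnajb9 fell by 0.84. None of the 10 mitochondrial chaperones and proteases passed at 4 h. The list of heat shock factors had 2 genes tested, and neither passed. They were Hsf2, which read 3.01 to 3.44, near the array median, and Hsbp1, a factor-binding protein and not a factor itself. The factor gene Hsf1 was not analysed here.

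**Figure D5:**
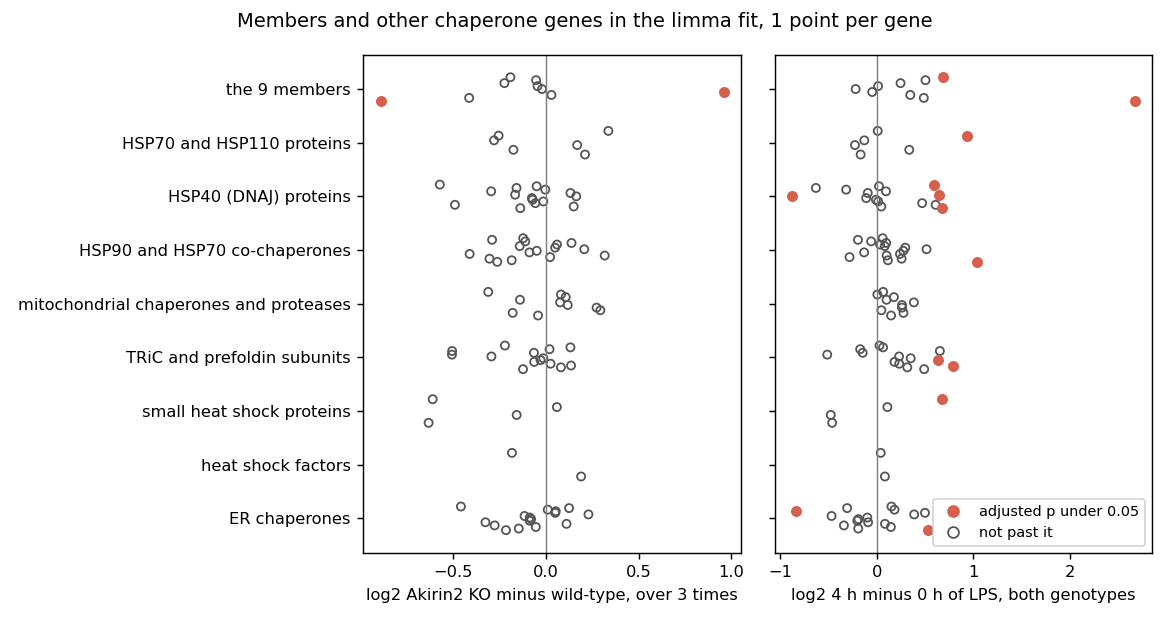
Limma estimates (horizontal axes, log2) for the 9 genes and for 8 lists of other chaperone genes (rows), between Akirin2 KO and wild-type macrophages over the 3 times (left) and between 4 h and 0 h of LPS over both genotypes (right), 1 point per gene and filled where the adjusted p was under 0.05. The 2 filled points on the left are Hspa1b at -0.89 and Hsph1 at 0.96, and on the right Hspa1b at 2.68 lies farthest from 0.

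Genes with the most similar profile over the 6 arrays were found for Hspa1a and Hspd1 among genes whose SD over arrays was at least 0.5. For Hspa1a, read by a dim probe set that may read Hspa1b, they were Lif (r = 0.97), Errfi1 (0.95), Gadd45a (0.95), Rapgef2 (0.95) and Cd83 (0.94) of 1211 genes. Like Hspa1a, all were highest at 2 h in both genotypes. For Hspd1 they were Rcn1, Fabp3, Prkar2b, Slc48a1 and Agtrap of 1212 genes, with r of 0.99 each and, like Hspd1, the highest level at 4 h. The shared peak times follow from the ranking by r. Among the 9 genes themselves Hsp90aa1 and Hspd1 had an r of 0.94, Hspa1b and Dnaja1 0.91, and Hspa8 and Hsp90aa1 0.89, whereas Hsph1 had an r between -0.54 and 0.070 with the other 8. These values describe 6 arrays that share their genotypes and LPS times.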

How the data were processed

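Expression was measured on 6 Affymetrix mouse arrays, 1 for each condition. The deposited values are log2 expression for each probe set. The submitters' processing notes name RMA, a method that subtracts background, equalises the distributions of the arrays and combines probes, so differences are relative to the array. No version of it is stated. Values ran from 2.26 to 14.2 over 45101 probe sets; 34958 named 1 gene in the platform annotation supplied, 932 several, and 9211 were unnamed here. A gene was tested if it reached an array's median on at least 1 array. Tests used limma 3.58.1 in R 4.3.3 (lmFit, eBayes, Benjamini-Hochberg at 0.05). The fit with LPS time and genotype left 2 residual degrees of freedom plus a prior worth 6.35, and the interaction fit 1 plus 11.5. The fits were tested on simulated data. Single arrays were compared by a 2-fold rule. Alternatives were other floors, probe set rules, scalings, variance priors and thresholds, and leaving out each array. Named genes are Akirin2, the members, listed chaperones past the test (at most the 3 largest effects each way per list), and the 5 most similar profiles; Hspe1, Hspb1 and the marker genes were named after their values were seen. Members and lists were chosen with earlier results of these data known. The number of arrays limits the precision.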

Additional observations from a re-analysis of the deposited data

Results flagged for a closer look

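Dnajb1 was above 0 h at 2 h and 4 h of LPS in Akirin2 KO macrophages (0.26 and 0.33) and below it in wild-type macrophages (-0.075 and -0.30). On the deposited values the 2 genotypes thus moved in opposite directions. The test of that difference, the limma interaction, gave 0.48 (adjusted p = 0.463), and its dimmer probe set was above 0 h in both genotypes. With arrays centred, all 9 genes, Dnajb1 among them, were above 0 h at 2 h in wild-type macrophages. On that scaling the opposite directions of Dnajb1 did not hold at 2 h. Hsph1 moved by -0.087 and -0.15 in Akirin2 KO and by 0.082 and 0.051 in wild-type macrophages, also in opposite directions, with an interaction of -0.18 (adjusted p = 0.811). No condition had enough arrays for a check of single arrays against their group.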

How the results depend on the processing

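No paired analysis was possible because each condition had 1 array. Counts are of genes called, or of the 9 heat shock genes where so named, beside 265 genes between genotypes, 931 at 2 h, 2089 at 4 h and 4 for the interaction. With probe sets averaged, 176 of 12329 genes were called between genotypes, 1 of them a heat shock gene. At 2 h 737 genes were called in that setting, 4 of them heat shock genes. The interaction had 1 gene there, and 0 heat shock genes were 2-fold apart between genotypes at 0 h or 2 h. Without _x_at and _s_at probe sets, 4 heat shock genes were called at 2 h and 4 at 4 h. In that setting 884 and 1955 of 13160 genes were called. The 2 h count holds Hspa1a, which is not read against that share. With the same probe sets left out, 2 heat shock genes were 2-fold higher at 4 h in Akirin2 KO, and the interaction had 0 genes. The interaction had 0 genes without a floor, at the higher floor and with arrays centred, 62 with quantile normalization again, 256 with a trended, robust eBayes prior and 80 at an adjusted p of 0.1. Between genotypes 142 genes were called with arrays centred, 883 with the trended, robust prior and 532 at an adjusted p of 0.1. At 2 h the last 2 gave 1669 and 1413 genes. With the trended, robust prior 5 heat shock genes were called at 2 h and 4 at 4 h. At 4 h that prior called 2846 of 13587 genes. With quantile normalization again 0 heat shock genes were 2-fold apart between genotypes at 2 h. At 1.5-fold the heat shock genes apart between genotypes were 3 at 2 h and 1 at 4 h. Those past 1.5-fold in Akirin2 KO were 2 at 2 h and 3 at 4 h. Wild-type macrophages had 2 between 2 and 4 h, and 1 and 2 had a response that far apart at 2 h and 4 h. The share of all genes past 1.5-fold is not given here, so these counts are not read as a result about the set. Leaving out 1 array at a time gave 158 to 664 genes and 1 to 2 heat shock genes between genotypes, 415 to 1548 and 1 to 2 at 2 h, and 1368 to 2531 and 1 to 3 at 4 h. The lowest genotype count came without a 2 h array, which kept 140 of the 265 calls, and the highest without a 0 h array, which kept all 265. The genotype difference of Hspa1b turned to 0.077 on probe set 1427127_x_at fitted on its own, an alternative chosen after the data were seen. Centring the arrays turned the median interaction over all genes to -0.11, from 0.10. The cause of these shifts was not tested. Hspa1a and the dim probe sets read near the array median, which limits their fold changes.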
